A study of Mus musculus with 6 samples.

Results

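Cd48 and Slamf1 are the mouse genes of CD48 and CD150, the cell-surface receptors of the SLAM family that are most used to sort blood stem cells. They were chosen by name, as the rows Cd48 and Slamf1 of the deposited expression tables, and are 2 of 13278 genes; both are among the 11945 genes whose counts could be recovered from the deposited values. Transcriptomes of single sorted blood stem and progenitor cells were measured in C57BL/6 mice, in 6 libraries of 76 to 89 cells (497 cells in all), with 1 library per group.

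In the HSC2/MPP4 library, bone marrow cells sorted as CD48+ HSC2 were mixed with MPP4 cells. The MPP2-containing library held CD201-CD48- HPC1, MPP2, CD48+ HSC1 and CD48+ HPC1 cells of bone marrow. HPC1 cells of the CD201+CD48- and the CD48+ gate made up the HPC1 library, and HSC1 cells of the same gates made up the HSC1 library. Both carry the tissue label spleen, while bone marrow is named in the title of the series. Bone marrow HSC2 cells that were CD48-, both CD201+ and CD201-, formed the CD48-negative HSC2 library. Bone marrow HSC1 and HPC1 cells that were negative for both CD201 and CD48 formed the double-negative library. The molecule is given as total RNA, from mice aged 8 weeks, for both libraries with HSC2 cells, and as polyA RNA, from mice aged 8 to 10 weeks, for the other 4. HSC1, HSC2, HPC1, MPP2 and MPP4 are names of sorted stem and progenitor fractions (stem cell, progenitor cell, multipotent progenitor). The labels do not define them, give no allele or treatment, do not say how many mice were pooled, and do not say whether CD150 was part of a gate. The labels assign no cell to a gate within a library, because cells are named by library and number alone. With 1 library per group, gate and library cannot be told apart in any comparison, and no difference between libraries was tested. Tissue, RNA type and age labels are alike within 3 of the 4 comparisons made (MPP2-containing against double-negative, HSC2/MPP4 against CD48-negative HSC2, and HPC1 against HSC1). RNA type and age differ along with the gate between CD48-negative HSC2 and the double-negative library.

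CD48 is a lipid-anchored protein that binds the receptor CD244 and, in mice, CD2. CD150 binds CD150 on a neighbouring cell and signals through the adaptor SAP and the kinase Fyn. In mouse bone marrow, stem cells are classically enriched as CD150-positive and CD48-negative, MPP2 carries both proteins, and MPP4 carries CD48 and Flt3 and lacks CD150.

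Both genes lie on the plus strand of chromosome 1 in the SLAM gene cluster, which holds 7 SLAM genes within 394 kb in the GENCODE vM21 annotation of GRCm38, the build that mm10 names. Cd48 spans chr1:171682009-171705258 and Slamf1 spans chr1:171767127-171801184. The space between them is 61.9 kb and holds 0 other protein-coding genes. Cd48 overlaps the unclassified transcript Gm37010, and Slamf1 overlaps no annotated gene. The 300 bases around each RefSeq start site (250 before it and 50 after it) are printed here because the neighbouring genes were counted in different sets of libraries. They are RefSeq sequence of GRCm38.p6, at chr1:171681742-171682041 for Cd48 and chr1:171766882-171767181 for Slamf1, plus strand, 5′ to 3′, and these RefSeq starts are not the GENCODE gene starts given above. Capitals mark matches to the core motifs of ETS, GATA and RUNX factors, families with known roles in blood cells.
Cd48: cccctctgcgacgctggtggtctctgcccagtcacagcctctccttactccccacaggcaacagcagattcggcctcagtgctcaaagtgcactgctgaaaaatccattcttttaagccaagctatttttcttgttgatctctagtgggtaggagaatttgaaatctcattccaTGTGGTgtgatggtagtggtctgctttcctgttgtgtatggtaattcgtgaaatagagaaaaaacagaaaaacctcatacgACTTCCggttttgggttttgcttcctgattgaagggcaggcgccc
Slamf1: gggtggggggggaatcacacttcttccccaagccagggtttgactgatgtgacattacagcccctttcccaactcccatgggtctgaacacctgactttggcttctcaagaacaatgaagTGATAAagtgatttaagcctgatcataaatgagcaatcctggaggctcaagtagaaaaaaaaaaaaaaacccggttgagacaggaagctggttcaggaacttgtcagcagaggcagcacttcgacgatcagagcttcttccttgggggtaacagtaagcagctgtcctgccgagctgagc

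The motifs searched, on both strands, were GGAAGT for ETS, AGATAA and TGATAA for GATA, and TGTGGT for RUNX. The Cd48 window had 1 ETS core match, which is also a match to the longer ETS motif CCGGAAGT, and 1 RUNX match, and the Slamf1 window had 1 GATA match. Of 32851 mouse promoters of this length, 23.8% held the ETS core, 3.89% the longer ETS motif, 18.6% a GATA motif and 16.8% the RUNX motif. A match is a description of the letters and not a binding site.

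Cd48 transcripts followed the CD48 gates, and Slamf1 transcripts were nearly absent from both libraries with HSC2 cells. A level is the pooled count of all cells of 1 library per 1000000 of their counts (CPM), with an exact 95% Poisson interval that covers counting error only. Cd48 stood at 173 CPM (160 to 187) in HSC2/MPP4. It stood at 122 CPM (116 to 127) in the MPP2-containing library, at 33.9 CPM (30.6 to 37.4) in HPC1 and at 81.4 CPM (74.6 to 88.6) in HSC1. In CD48-negative HSC2 it stood at 9.36 CPM (6.11 to 13.7) and in the double-negative library at 1.62 CPM (0.925 to 2.63). The order from high to low was HSC2/MPP4, MPP2-containing, HSC1, HPC1, CD48-negative HSC2 and double-negative, and no neighbours in this order had overlapping intervals. The 4 libraries with a CD48+ gate were thus above the 2 libraries without one, which describes the sort, since CD48 protein chose the cells.

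Slamf1 had another order. It stood at 2.04 CPM (0.880 to 4.02) in HSC2/MPP4, 26.7 CPM (24.1 to 29.4) in the MPP2-containing library, 22.9 CPM (20.2 to 25.9) in HPC1 and 43.6 CPM (38.7 to 49.0) in HSC1. No Slamf1 was counted in CD48-negative HSC2 (0 counts, interval 0 to 1.33 CPM, where 3 counts would be 1.08 CPM), and the double-negative library stood at 26.6 CPM (23.5 to 30.02). In pooled CPM HSC1 was highest. The MPP2-containing, double-negative and HPC1 libraries came next with overlapping intervals, so they do not differ beyond counting error, and both libraries with HSC2 cells were lowest. The first place of HSC1 holds for the pooled level alone. The mean of Slamf1 over cells was 35.4 ± 85.0 CPM in HSC1 and 35.2 ± 69.8 CPM in the double-negative library, and the mean deposited score was 0.236 in HSC1 and 0.271 in the double-negative library. The means over cells were 31.0 ± 58.1 CPM in the MPP2-containing library and 24.1 ± 46.9 CPM in HPC1 (SD over cells). All 8 Slamf1 counts of HSC2/MPP4 came from 1 of its 89 cells.

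**Figure D1:**
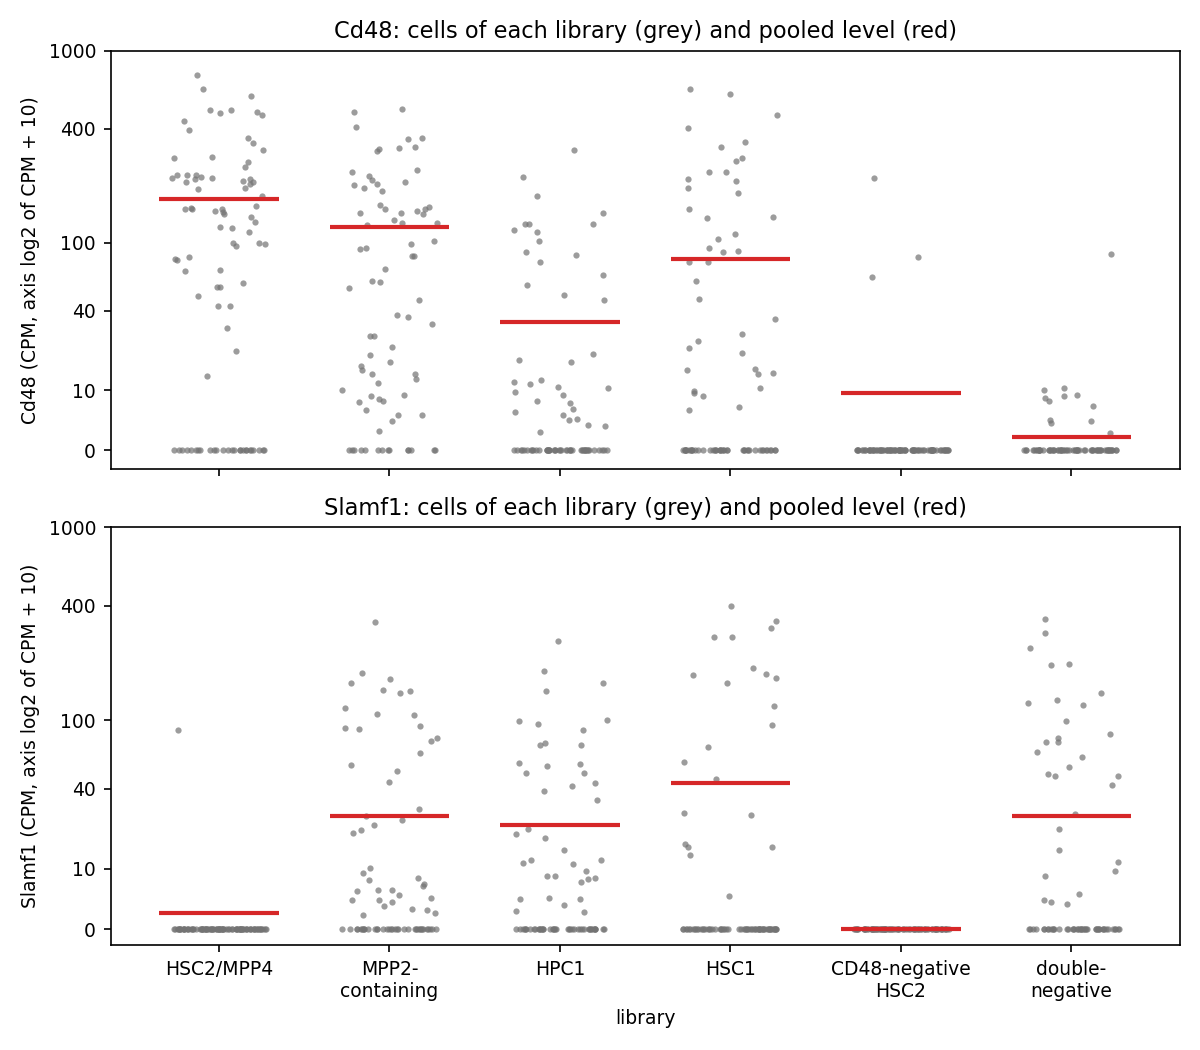
Each grey point is 1 cell and each red line the pooled level of the library, in CPM on a log2(CPM + 10) axis, for Cd48 (top) and Slamf1 (bottom) in the 6 libraries. Cd48 cells reach 750 CPM in HSC2/MPP4 and 86.4 CPM in the double-negative library, and Slamf1 is at 0 in every CD48-negative HSC2 cell.

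Cells of 1 library differed widely, so the pooled level is not the level of a typical cell. The mean of Cd48 over cells was 152 ± 168 CPM in HSC2/MPP4, 103 ± 123 CPM in the MPP2-containing library, 27.1 ± 56.7 CPM in HPC1 and 72.1 ± 135 CPM in HSC1 (SD over 89, 80, 82 and 84 cells). It was 4.31 ± 26.4 CPM in CD48-negative HSC2 and 2.12 ± 10.1 CPM in the double-negative library (SD over 86 and 76 cells). In each library the SD was larger than the mean.

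Cells with at least 1 Cd48 count numbered 63 of 89 in HSC2/MPP4, 66 of 80 in the MPP2-containing library, 37 of 82 in HPC1 and 41 of 84 in HSC1. They numbered 3 of 86 in CD48-negative HSC2 and 12 of 76 in the double-negative library. The median depth of a cell was 35977 counts in HSC2/MPP4, 145496 in the MPP2-containing library, 112832 in HPC1, 63092.5 in HSC1, 23540 in CD48-negative HSC2 and 105225 in the double-negative library, so these shares are not on 1 scale. After each cell was thinned to 10000 counts, the share with Cd48 was 59.3% in HSC2/MPP4 (48 of 81 cells, exact 95% Clopper-Pearson interval 47.8 to 70.1%) and 48.8% in the MPP2-containing library (39 of 80, 37.4 to 60.2%). It was 16.0% in HPC1 (13 of 81, 8.83 to 25.9%) and 31.3% in HSC1 (25 of 80, 21.3 to 42.6%). It was 4.55% in CD48-negative HSC2 (3 of 66, 0.947 to 12.7%) and 5.33% in the double-negative library (4 of 75, 1.47 to 13.1%). Thinning left out 8 cells of HSC2/MPP4, 1 of HPC1, 4 of HSC1, 20 of CD48-negative HSC2, 1 of the double-negative library and 0 of the MPP2-containing library. The 3 and 4 cells of the CD48-negative libraries are near the smallest number that can be seen: averaged over all possible thinnings, 2.04 and 1.37 cells would keep a count.

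The Cd48 counts outside the CD48+ gates had different forms. In the double-negative library the 12 cells held 1 to 4 counts each (16 in all), with a median of 1, and the highest cell held 25% of them. In CD48-negative HSC2 the 3 cells held 26 counts, the highest of them 16, which is 61.5% of the total. Without that cell CD48-negative HSC2 stood at 3.86 CPM, against 1.22 CPM in the double-negative library without its highest cell. The double-negative library had a median depth of 105225 counts, and 11 of its 12 cells with Cd48 held 1 to 3 counts. Whether such counts are a background was not tested.

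Slamf1 was counted in 1 of 89 cells of HSC2/MPP4, 44 of 80 of the MPP2-containing library, 40 of 82 of HPC1 and 22 of 84 of HSC1. It was counted in 0 of 86 cells of CD48-negative HSC2 and 31 of 76 cells of the double-negative library. HSC1 had the highest pooled level with fewer Slamf1 cells than HPC1. The median among cells with a count was 24.1 CPM in the MPP2-containing library, 27.7 CPM in HPC1, 107 CPM in HSC1 and 62.3 CPM in the double-negative library. These medians are not on 1 scale either, since 1 count is worth more CPM in a shallow cell and HSC1 cells were shallower than those of the other 3; 23 of the 44 Slamf1 cells of the MPP2-containing library, 21 of 40 in HPC1 and 9 of 22 in HSC1 held 1 to 3 counts. After thinning, the share with Slamf1 was 13.8% in the MPP2-containing library (11 of 80 cells, 7.07 to 23.3%), 18.5% in HPC1 (15 of 81, 10.8 to 28.7%), 17.5% in HSC1 (14 of 80, 9.91 to 27.6%) and 21.3% in the double-negative library (16 of 75, 12.7 to 32.3%). It was 1.23% in HSC2/MPP4 (1 of 81, 0.0313 to 6.69%) and 0 in CD48-negative HSC2 (0 of 66). Averaged over all possible thinnings these shares were 18.6% in the MPP2-containing library, 16.1% in HPC1, 16.3% in HSC1 and 19.8% in the double-negative library.

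The MPP2-containing library set against the double-negative library compares a library with CD48+ fractions, beside CD201-CD48- HPC1 cells, with a library of CD48- cells alone. Cd48 was 3.50 higher on the log2(CPM + 10) scale (counting interval 3.32 to 3.65), at 122 CPM in the MPP2-containing library against 1.62 CPM in the double-negative library, and 4 of the 11945 recovered genes had a higher ratio. For scale, 2.01% of genes were at least 2-fold higher and 2.04% at least 2-fold lower on this scale. Slamf1 differed by 0.0037 (-0.23 to 0.24), with 26.7 CPM in the MPP2-containing library and 26.6 CPM in the double-negative library, close to the median over all genes of -0.01. The neighbouring genes thus parted: the Cd48 level was 75.1-fold higher in the MPP2-containing library, and the Slamf1 levels differed by less than counting error.

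HSC2/MPP4 set against CD48-negative HSC2 is the other comparison across the CD48 gate, in the pair of libraries made from total RNA. Cd48 was 3.24 higher (2.84 to 3.61) on the log2(CPM + 10) scale, at 173 CPM in HSC2/MPP4 against 9.36 CPM in CD48-negative HSC2, and 9 genes had a higher ratio. Of all genes, 1.87% were at least 2-fold higher and 3.33% at least 2-fold lower. Slamf1 was near 0 in both, with 2.04 CPM in HSC2/MPP4 against 0 CPM in CD48-negative HSC2. Its 8 counts in HSC2/MPP4 were in 1 cell, which had 88.1 CPM of Slamf1 and also counts of Cd48.

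The HPC1 and HSC1 libraries had matching gates, a CD201+CD48- and a CD48+ fraction each, so they compare the HPC1 and HSC1 fractions with the gates held alike. Both genes were lower in HPC1. Cd48 was at 33.9 CPM in HPC1 and 81.4 CPM in HSC1, a log2 ratio of -1.06 (-1.28 to -0.83), and 184 genes had a lower ratio. Without the deepest 10% of cells the ratio was -0.98, short of 2-fold. Of all genes, 2% were at least 2-fold lower and 1.88% at least 2-fold higher. Slamf1 was at 22.9 CPM in HPC1 and 43.6 CPM in HSC1, a log2 ratio of -0.70 (-0.96 to -0.44), short of 2-fold, and -1.13, past 2-fold, without the deepest 10% of cells. The labels do not say how many cells of each gate entered either library, and a smaller share of CD48+ cells and less Cd48 per cell cannot be told apart in a pooled level. Among cells with at least 1 Cd48 count, the median was 18.3 CPM in HPC1, against 89.6 CPM in HSC1, where 1 count is worth more CPM in the shallower HSC1 cells, and 14 HPC1 cells and 16 HSC1 cells held 10 counts or more.

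CD48-negative HSC2 set against the double-negative library compares the 2 libraries without a CD48+ gate. Slamf1 was lower in CD48-negative HSC2, with 0 counts in 2778858, against 263 counts in 9885419 in the double-negative library. With the empty library set at 3 counts it was 24.6-fold lower, a value of that rule and not a limit of the Poisson intervals. Of all genes, 2.72% were at least 2-fold lower and 4.32% at least 2-fold higher on the log2(CPM + 10) scale, and 19 had a lower ratio than Slamf1. Cd48 was 0.74 higher (0.35 to 1.12) on that scale in CD48-negative HSC2, short of 2-fold. Without the highest cell of each library it was 0.31 higher, and with the recovered genes as the total 1.02 higher, past 2-fold.

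Within a library, cells with Cd48 and cells with Slamf1 overlapped about as often as their numbers give. In the MPP2-containing library 37 cells had both transcripts, against 36.3 if detection of the 2 genes were independent, 29 had Cd48 alone, 7 had Slamf1 alone and 7 had neither. In HPC1 19 cells had both, against 18.05 under independence, and in HSC1 12 cells had both, against 10.7. In the double-negative library 4 cells had both, against 4.89. Depth differed between the cells in these counts. After thinning, the cells with both numbered 4 in the MPP2-containing library, 2 in HPC1, 3 in HSC1 and 1 in the double-negative library, against 5.36, 2.41, 4.38 and 0.853 under independence.

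**Figure D2:**
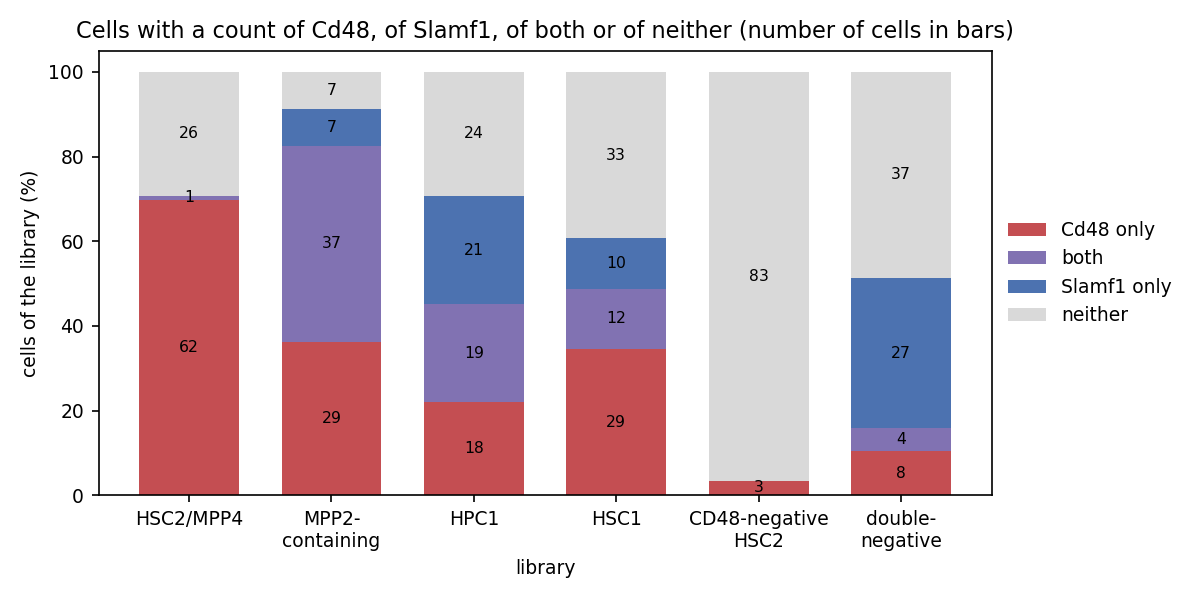
Bars give the percentage of cells of each library with a count of Cd48 alone, of both genes, of Slamf1 alone or of neither, without thinning, and the numbers in the bars are cells. Cells with Cd48 alone make up 62 of 89 in HSC2/MPP4, 83 of 86 CD48-negative HSC2 cells have neither gene, and the double-negative library has 27 cells with Slamf1 alone.

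The levels of the 2 genes were also only weakly related from cell to cell. Pearson's r of the per-cell log2(CPM + 10) values was -0.24 over the 80 cells of the MPP2-containing library, -0.05 over the 82 cells of HPC1, 0.01 over the 84 cells of HSC1 and -0.10 over the 76 cells of the double-negative library. Cells of 1 library share their library and its range of depths, and the counts are sparse, so these weak correlations were not read as findings. In the MPP2-containing library, where r was furthest from 0, pooled Slamf1 was at 13.3 CPM (10.97 to 15.98) in cells with at least 50 CPM of Cd48. It was at 44.5 CPM (32.8 to 59.0) in the cells there with no Cd48 count. That difference was not tested.

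Within HPC1 and within HSC1, cells with much Cd48 had less Procr and Mecom than cells with no Cd48 count. Cells were put in classes of at least 50 CPM of Cd48, a level above 0 and under 50 CPM, and no count; the limit was chosen after the values were seen. The first class held 57 cells of HSC2/MPP4, 40 of the MPP2-containing library, 15 of HPC1, 25 of HSC1, 3 of CD48-negative HSC2 and 1 of the double-negative library. Near the limit, between 25 and 100 CPM, lay 15 cells of HSC2/MPP4, 15 of the MPP2-containing library, 7 of HPC1 and 10 of HSC1, so the classes are ranges of a level and not cell types.

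Procr, the gene of the gate protein CD201, ran opposite to Cd48 in the libraries that held a CD201+CD48- and a CD48+ gate. In HPC1 it was at 2.08 CPM (0.838 to 4.30) in the 15 cells of the first class, against 111 CPM (101 to 121) in the 45 cells with no Cd48 count. In HSC1 it was at 21.8 CPM (16.0 to 29.0) in the 25 cells of the first class, against 189 CPM (173 to 207) in the 43 cells with no Cd48 count. The 2 libraries with CD48+ cells and no CD201+ gate in their labels did not have this order. Procr was at 8.28 CPM (6.47 to 10.4) in the first class of the MPP2-containing library, 32.0 CPM (27.4 to 37.2) in the middle class and 2.78 CPM (0.574 to 8.13) in the cells with no count, and in HSC2/MPP4 at 19.2 CPM (14.5 to 24.96) in the first class against 15.9 CPM (7.93 to 28.4) in the cells with no count. Cells sorted by these gates differ in both proteins by design, and the labels trace no cell to its gate. Cell number went with Cd48: in HPC1 and in HSC1 the cells numbered 1 to 50 held at most 3 Cd48 counts each. All cells of the first class in these libraries had higher numbers. In HPC1 the cells with higher numbers held at most 3 Procr counts each. What the number stands for is not given, and the patterns by Cd48 class were not separated from it.

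Mecom, a transcription factor needed by stem cells, was not a gate gene and had a like pattern. It was at 10.4 CPM (7.26 to 14.5) in the first class of HPC1, against 89.7 CPM (81.1 to 98.9) in the HPC1 cells with no Cd48 count. In HSC1 it was at 35.2 CPM (27.7 to 44.1) in the first class, against 183 CPM (167 to 200) in the cells with no Cd48 count. In the MPP2-containing library, which has no CD201+ gate in its label, Mecom was at 24.8 CPM (21.6 to 28.4) in the 40 cells of the first class, against 74.2 CPM (58.8 to 92.4) in the 14 cells with no count. The median depth of the first class in HPC1 was 237783 counts, against 88200 in the cells with no count; in the MPP2-containing library it was 176738 against 72418.5, and in HSC1 64066 against 50843. The part of depth in these patterns was not tested.

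Itga2b, the gene of the megakaryocyte and platelet integrin CD41, went with Cd48 in the same libraries. It was at 446 CPM (424 to 470) in the first class of HPC1, against 221 CPM (207 to 235) in the cells with no Cd48 count. In HSC1 it was at 96.9 CPM (84.2 to 111) in the first class, against 46.1 CPM (38.4 to 55.0) in the cells with no count. The middle class was lowest in both libraries, at 121 CPM in HPC1 and 16.4 CPM in HSC1, so Itga2b did not step evenly with Cd48. The direction of Slamf1 in pooled CPM differed between HPC1 and HSC1, and was not tested. It was at 36.3 CPM (30.2 to 43.4) in the first class of HPC1 against 22.7 CPM (18.5 to 27.6) in the cells with no count, and at 32.9 CPM (25.7 to 41.5) in the first class of HSC1 against 49.8 CPM (41.8 to 59.0). In HPC1, 1 cell held 64 of the 122 Slamf1 counts of the first class. The mean of Slamf1 over cells was close between these classes. It was 27.5 CPM in the first class of HPC1 against 29.2 CPM with no count, and 33.4 against 33.2 CPM in HSC1. In the MPP2-containing library pooled Slamf1 was at 13.3 CPM (10.97 to 15.98) in the first class against 44.5 CPM (32.8 to 59.0) in the cells with no count, lower with much Cd48 as Mecom was there. The mean over cells there was 15.4 against 58.0 CPM. With the class limit at 100 CPM in place of 50 CPM, the log2 ratio of the first class over all other cells of HPC1 was -0.45 for Slamf1, in place of 0.76, and 0.59 for Itga2b, in place of 1.30.

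**Figure D3:**
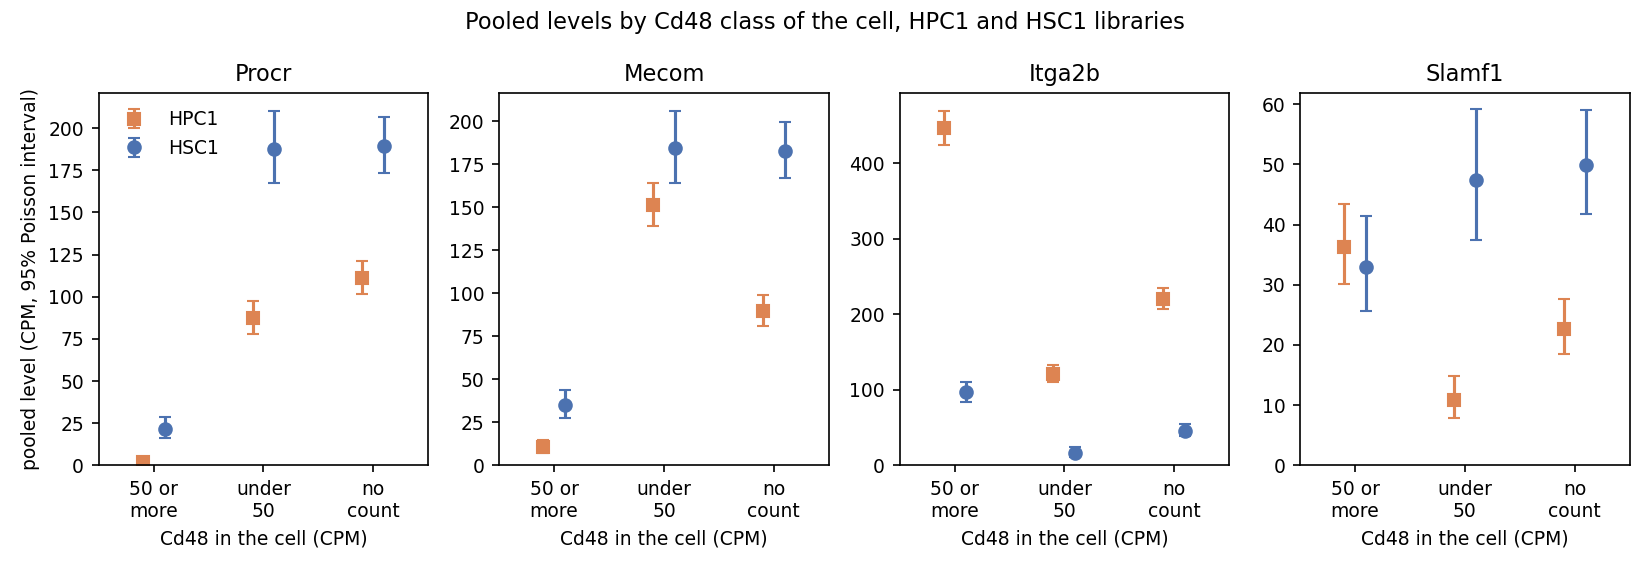
Points give the pooled CPM of Procr, Mecom, Itga2b and Slamf1 in the cells of HPC1 (orange squares) and HSC1 (blue circles), by the Cd48 level of the cell, and bars give exact 95% Poisson intervals. Procr and Mecom are lowest in cells with at least 50 CPM of Cd48 in both libraries, and Itga2b is highest there.

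The same relations as correlations over cells were r of -0.31 in HPC1 and -0.44 in HSC1 between Cd48 and Procr, -0.34 and -0.41 between Cd48 and Mecom, and 0.42 and 0.45 between Cd48 and Itga2b (82 and 84 cells). In the MPP2-containing library Cd48 had r of -0.04 with Procr, -0.35 with Mecom and -0.17 with Itga2b (80 cells). By Cd48 class, pooled Itga2b there was at 173 CPM (164 to 182) in the first class and 207 CPM (195 to 220) in the middle class. It was at 88.1 CPM (71.3 to 108) in the cells with no count, so the first class was above these cells despite the negative r. The proliferation gene Mki67 stood at 335 CPM (322 to 347) in the first Cd48 class of the MPP2-containing library, against 64.9 CPM (50.6 to 82.0) in the cells with no Cd48 count. In HPC1 it stood at 213 CPM (197 to 229) in the first class, 311 CPM (293 to 329) in the middle class and 96.0 CPM (87.1 to 106) in the cells with no count. The middle class was thus highest in pooled CPM alone. The mean of Mki67 over HPC1 cells was 200 ± 219 CPM in the first class, 200 ± 407 CPM in the middle class and 70.3 ± 136 CPM with no count. Mki67 was counted in 14 of the 15 first-class cells of HPC1 and in 17 of the 22 of the middle class. In HSC1 pooled Mki67 stood at 95.9 CPM in the first class against 84.1 CPM in the cells with no count, where the intervals overlap. Its mean over cells there was 97.8 ± 140 CPM against 38.3 ± 134 CPM (SD over cells). Mki67 was counted in 17 of the 25 first-class cells of HSC1 and in 15 of the 43 with no Cd48 count. Per-cell r of Cd48 with Mki67 was 0.22 in the MPP2-containing library, 0.21 in HPC1 and 0.29 in HSC1.

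Cells with and without Slamf1 were also set side by side. In the MPP2-containing library Cd48 was at 122 CPM (115 to 129) in the 44 cells with a Slamf1 count and 121 CPM (112 to 131) in the 36 cells without one. In HSC1 it was at 116 CPM (102 to 133) in the 22 cells with a Slamf1 count and 66.4 CPM (59.1 to 74.3) in the 62 cells without one. However, 2 of these 22 cells held 62 and 58 of their 226 Cd48 counts, and per-cell r was 0.01. Cd48 was at 37.3 CPM with Slamf1 and 28.5 CPM without it in HPC1, with overlapping intervals. The double-negative library had 0.906 against 2.19 CPM. Pooled Procr was lower in Slamf1 cells of the MPP2-containing library (7.85 against 31.9 CPM), of HPC1 (56.8 against 95.1 CPM) and of the double-negative library (8.83 against 36.03 CPM). The share of cells with Procr was lower only in HPC1 (52.5% against 64.3%). It was higher in the MPP2-containing library (38.6% against 33.3%) and the double-negative library (45.2% against 42.2%). In the MPP2-containing library 1 cell held 73 of the 170 Procr counts without Slamf1. Per-cell r of Slamf1 with Procr was -0.17, -0.04 and -0.08 in MPP2-containing, HPC1 and double-negative. In HSC1 Procr was at 136 CPM (121 to 154) in cells with Slamf1 and 132 CPM (122 to 143) in cells without it. The median depth of cells with a Slamf1 count was higher in each of these libraries (176738 against 101033 counts in the MPP2-containing library, 138452 against 70627 in HPC1, 69256 against 60942 in HSC1 and 115664 against 99437 in the double-negative library), and its part in these values was not tested.

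Over the 6 libraries, the genes most like Cd48 were found among 238 genes with a log2 range of at least 2 and a count in at least 25% of the cells of 1 library. They were Pclaf (r 0.94), Nkg7 (0.92), Cst7 (0.92), Ap3s1 (0.92) and Clec12a (0.91). Pclaf encodes a partner of the replication clamp, Nkg7 a cytotoxic granule protein, Cst7 a cystatin, Ap3s1 a subunit of a vesicle adaptor and Clec12a a myeloid lectin receptor. Nkg7 stood at 483 CPM in HSC2/MPP4, 435 CPM in the MPP2-containing library, 337 CPM in HPC1, 270 CPM in HSC1, 77.4 CPM in CD48-negative HSC2 and 91.3 CPM in the double-negative library. The same gene also had the highest mean r with Cd48 from cell to cell within the 4 libraries where Cd48 was counted in at least 20% of cells, 0.42 (0.14 to 0.66), among 5185 genes.

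After Nkg7 within libraries came Runx3 (0.37), a transcription factor, H2afz (0.37), a histone variant, Dctpp1 (0.36), which clears modified nucleotides, and Hells (0.35), a chromatin helicase. The lowest mean r was that of Mecom (-0.30), followed by Mllt3 (-0.29), another stem cell regulator, and Ldhb (-0.26), a lactate dehydrogenase subunit. The 6 recovered cell cycle genes summed to 1403 CPM in HSC2/MPP4, 1815 CPM in the MPP2-containing library, 1377 CPM in HPC1, 737 CPM in HSC1, 785 CPM in CD48-negative HSC2 and 902 CPM in the double-negative library, and their part in these likenesses was not tested.

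For Slamf1, a log2 range of at least 1 left 2852 genes. The most like over the 6 libraries were Gchfr (r 0.99), a regulator of tetrahydrobiopterin synthesis, Det1 (0.98), a ubiquitin ligase component, Ptpn14 (0.98), a tyrosine phosphatase, Prkar2b (0.98), a regulatory subunit of protein kinase A, and Fmnl1 (0.97), a formin. Gchfr stood at 4.59 CPM in HSC2/MPP4, 19.0 CPM in the MPP2-containing library, 16.7 CPM in HPC1, 21.4 CPM in HSC1, 3.96 CPM in CD48-negative HSC2 and 16.3 CPM in the double-negative library. For each of these 5 genes the 2 lowest libraries were the 2 with HSC2 cells, total RNA and tables of their own, so the likeness and that divide cannot be told apart. Within libraries the highest mean r with Slamf1 among 5838 genes was 0.22 (Srsf1, a splicing factor), followed by Med4 (0.21), Pqlc1 (0.21), Arhgef40 (0.20) and Apoe (0.20), values too weak for a finding in sparse counts.

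**Figure D4:**
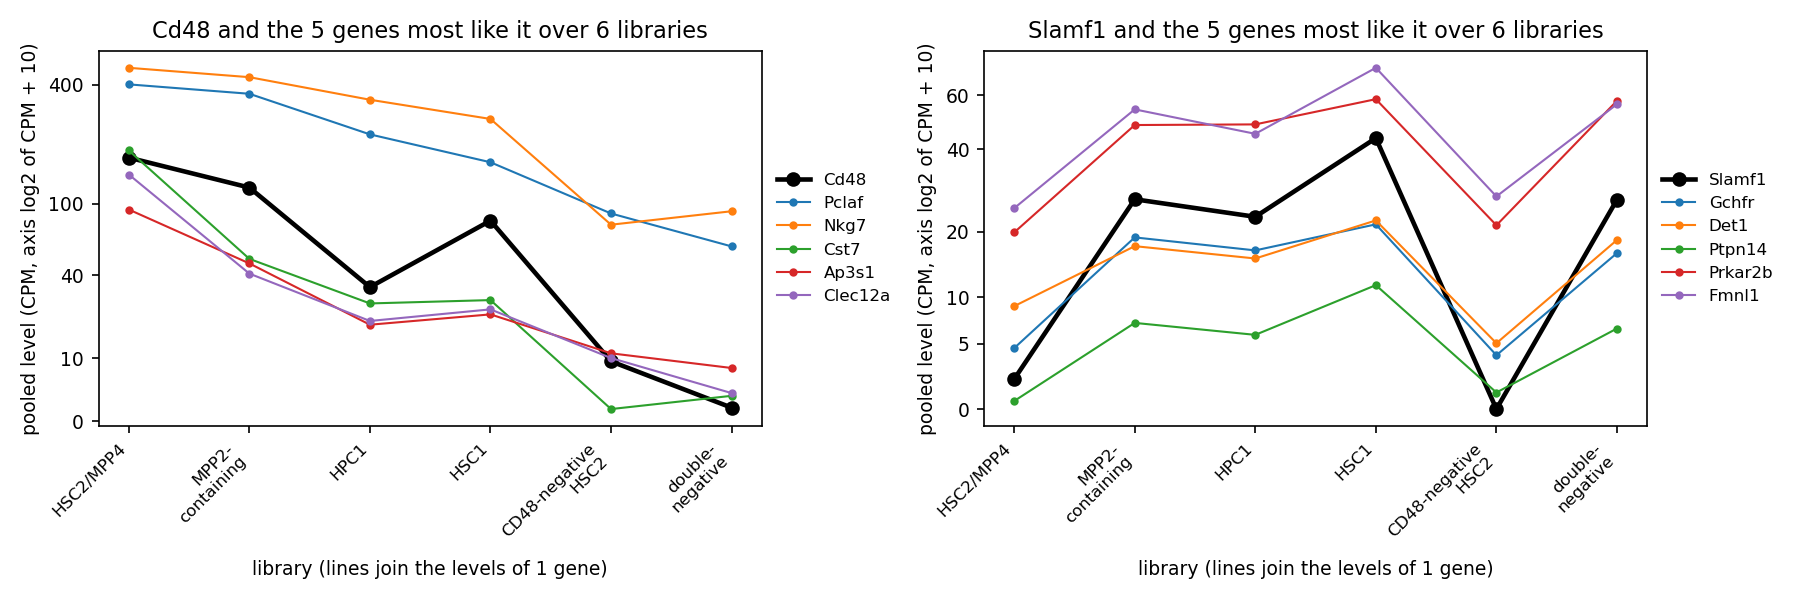
Pooled levels in CPM on a log2(CPM + 10) axis over the 6 libraries for Cd48 and its 5 most like genes (left) and Slamf1 and its 5 most like genes (right); lines join the libraries of 1 gene. Cd48 and its group are lowest in the CD48-negative HSC2 and double-negative libraries, and Slamf1 and its group are lowest in HSC2/MPP4 and CD48-negative HSC2.

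Of the 10 symbols listed for the SLAM family, 6 were in the tables and all 6 were recovered. Cd244, the receptor for CD48 (Cd244a in GENCODE), stood at 27.8 CPM (22.8 to 33.5) in HSC2/MPP4, 5.79 CPM in the MPP2-containing library and 0.0871 CPM in HPC1, where it had 1 count. It stood at 10.5 CPM in HSC1, 7.197 CPM (4.396 to 11.1) in CD48-negative HSC2 and 11.4 CPM in the double-negative library. HSC2/MPP4 thus had the highest levels of both the ligand gene and its receptor gene, and Cd244 in the double-negative library came from 4 of its 76 cells.

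Ly9, a self-binding SLAM receptor, was at 21.9 CPM (17.5 to 27.1) in HSC2/MPP4 and 21.2 CPM (16.2 to 27.4) in CD48-negative HSC2. The other 4 libraries were at 0.523 to 9.55 CPM, so pooled Ly9 was high where Slamf1 was lowest. By cell, CD48-negative HSC2 was close to HSC1. The mean of Ly9 over cells was 22.8 ± 39.7 CPM in HSC2/MPP4, 12.2 ± 38.8 CPM in CD48-negative HSC2 and 9.84 ± 51.8 CPM in HSC1. After thinning, 16.0%, 4.55% and 3.75% of the cells of these libraries had Ly9. In CD48-negative HSC2 9 of 86 cells held its counts, against 8 of 76 cells in the double-negative library, where it was at 1.82 CPM. Ly9 overlaps Cd244a on the opposite strand, and whether counting used strand is not given in the sources used here, so reads of these 2 genes cannot be told apart where they overlap. Cd84, another self-binding member and the neighbour of Slamf1, varied least of the family: it was at 94.6 CPM (89.1 to 100) in HPC1 and 57.0 CPM (51.3 to 63.1) in HSC1, and ranged from 48.9 to 70.8 CPM in the other 4 libraries. Slamf8, a member without the usual signalling motif, was at 5.08 CPM in HSC1 (7 cells) and 5.40 CPM in CD48-negative HSC2 (2 cells), and at 0 to 0.533 CPM in the other 4 libraries.

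Among the 6 family genes, Cd48 included, 1 was at least 2-fold higher and 0 at least 2-fold lower in the MPP2-containing library than in the double-negative one (Cd48), where 2.01% of all genes were higher and 2.04% lower. In HSC2/MPP4 over CD48-negative HSC2, 2 were at least 2-fold higher (Cd48 and Cd244) and 0 lower, against 1.87% and 3.33% of all genes. In HPC1 over HSC1, 0 were higher and 2 lower (Cd48 and Cd244), against 1.88% and 2% of all genes. In CD48-negative HSC2 over the double-negative library 1 was higher (Ly9) and 1 lower (Slamf1), against 4.32% and 2.72% of all genes. Cd48 and Slamf1 are themselves in these counts, which are of 6 genes and were not tested. The median log2 ratios of the 6 genes were 0.12, 0.15, -0.80 and 0.31 in these comparisons, against -0.01, -0.04, 0 and 0 over all genes.

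**Figure D5:**
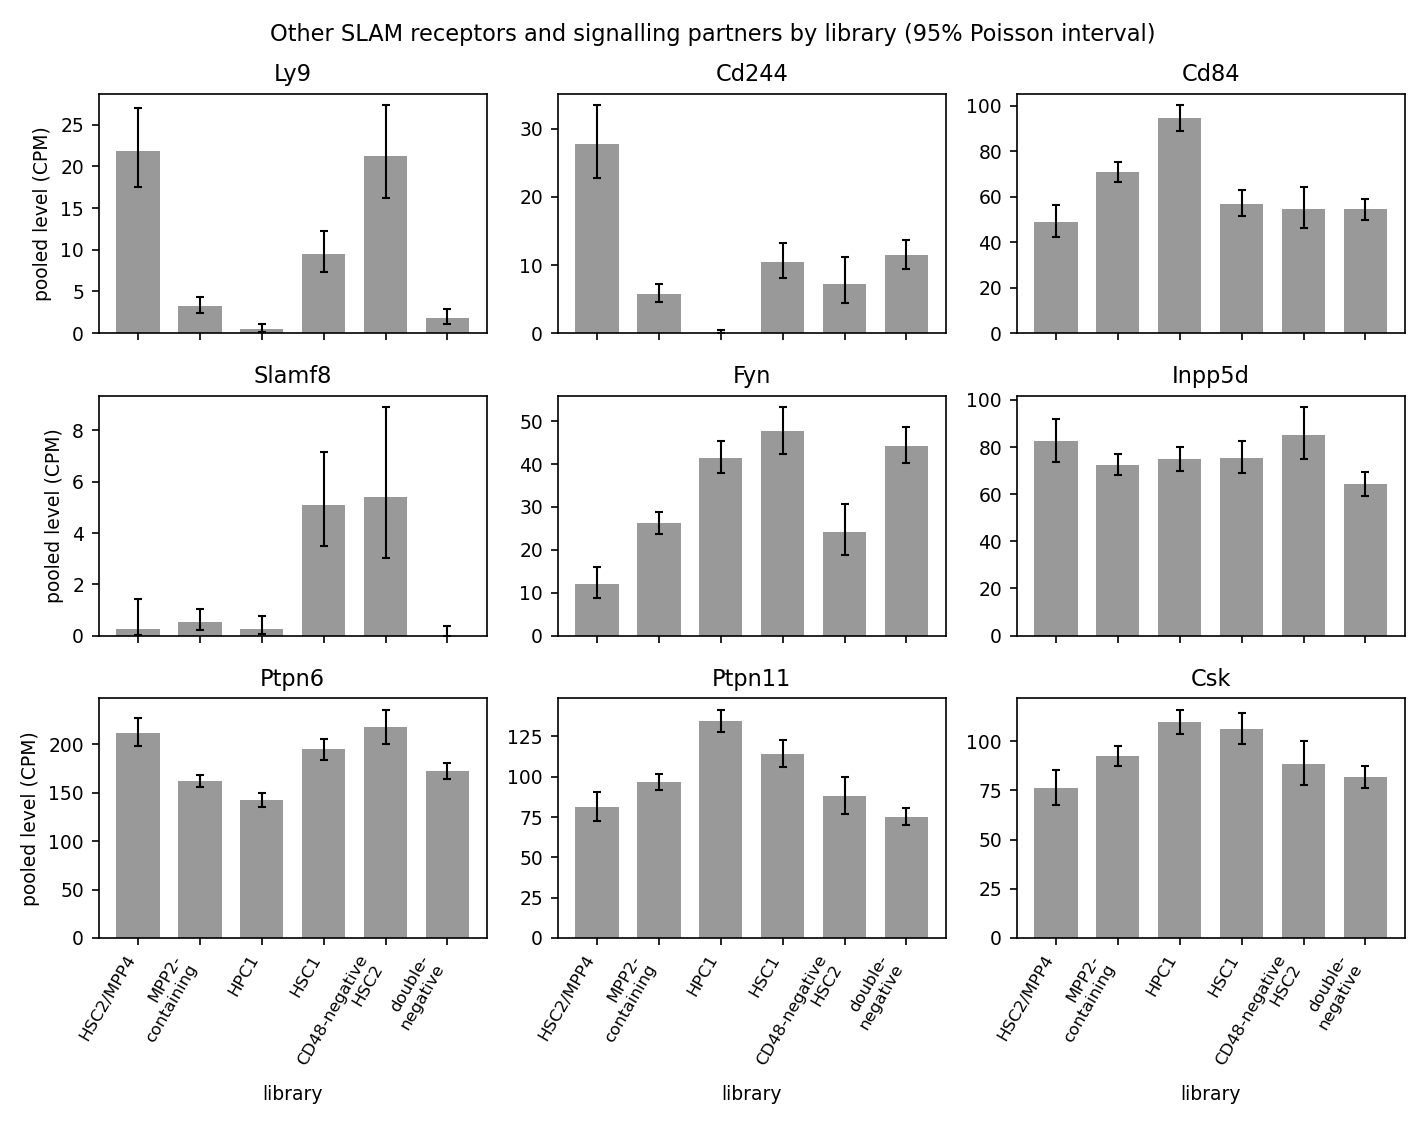
Bars give pooled CPM with exact 95% Poisson intervals in the 6 libraries for 4 other SLAM receptors and 5 signalling partners, each on its own axis from 0. Ly9 is highest in HSC2/MPP4 and CD48-negative HSC2, Cd244 in HSC2/MPP4, Cd84 in HPC1 and Fyn in HSC1.

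Of 9 listed signalling partners of SLAM receptors, 5 were recovered, and 0 of them passed 2-fold in either direction in any of the 4 comparisons. Between 1.87% and 4.32% of all genes passed in 1 direction of a comparison, so 0 of 5 is near the background and is not a result about these genes. Fyn, the kinase that CD150 engages, varied most: it was at 11.98 CPM (8.80 to 15.9) in HSC2/MPP4 and 24.1 CPM (18.7 to 30.6) in CD48-negative HSC2, and at 26.2 CPM in the MPP2-containing library, 41.5 CPM in HPC1, 47.6 CPM in HSC1 and 44.2 CPM in the double-negative library. The phosphatase genes Inpp5d, Ptpn6 and Ptpn11 ranged from 64.3 to 85.3 CPM, from 142 to 218 CPM and from 75.2 to 135 CPM over the 6 libraries. Csk, a kinase that restrains Src family kinases such as Fyn, ranged from 76.2 to 110 CPM.

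The libraries were also read for the cell types they could hold. The 12 stem cell markers, Slamf1 among them, summed to 838 CPM in HSC2/MPP4, 985 CPM in the MPP2-containing library, 1818 CPM in HPC1, 2505 CPM in HSC1, 2359 CPM in CD48-negative HSC2 and 1977 CPM in the double-negative library. CD48-negative HSC2 lacked Slamf1 with the rest of that list counted. Flt3, which MPP4 is known for, was at 286 CPM in HSC2/MPP4, 155 CPM in CD48-negative HSC2 and 5.84 to 34.2 CPM in the other 4. The 9 granulocyte and monocyte progenitor markers summed to 8884 CPM in HSC2/MPP4, against 363 to 1860 CPM elsewhere. The 5 recovered markers of mature B, T and NK cells, types that also make CD48, summed to 61.6 to 86.0 CPM, with 0 to 3 of them at 0 in a library (Cd3d, Cd4 and Klrb1c among them), and the 7 of macrophages and monocytes to 34.1 to 108 CPM. The 8 mature neutrophil markers summed to 5198 CPM in HSC2/MPP4, 2705 CPM in the MPP2-containing library, 4375 CPM in HPC1, 309 CPM in HSC1, 6588 CPM in CD48-negative HSC2 and 787 CPM in the double-negative library. The part of such cells or their RNA in the Cd48 levels was not tested.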

How the data were processed

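Single cells were sequenced by a modified Smart-seq2 method with enrichment of 3′ ends, per the labels' protocols. Per the submitters' processing notes, TopHat and HTSeq were used with the build mm10. The sources used here do not give versions, annotation, strand setting, cell filter, doublet removal or molecular identifiers. The deposited values are scores, scaled per gene over all 497 cells (mean 0, SD 1) and capped at 10, as tested on the files. The 2 later tables have unnamed lines, which were matched to the genes of the first table through this joint scaling, after 6 blank lines were dropped: for Cd48 and Slamf1 the joint SD was 1, and with the line before or after the joint mean moved to between -0.0323 and 0.154. Neither gene had a capped value.

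Counts were recovered from the scores. For each gene, the scores of cells with 0 counts fall on 1 plane over 2 cell covariates, which lets the removed regression and scaling be undone, with log normalization to 10000 per cell assumed. The recovered total of a cell is explained by the covariates with an R2 of 0.9999998. The covariates also helped to set these totals, so this R2 is no independent check. Of 13278 genes, 11945 were recovered. A gene was kept only if at least 98% of its values, very high counts aside, came out whole within 0.01. In the kept genes 100.0000% of 1980355 values from 1 to 50 were whole within 0.01. That share was largely set by the rule and is no independent check. The method was tested on simulated data, which checks the computation and not the model. CPM are per total count of a cell, of which the recovered genes hold 47.9 to 78.5%. The first 4 libraries hold 322 cells, and the design text counts 324. In all, 47 cell numbers occur in every library; they are names, and 0 pairs of cells had identical counts.

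Library totals were 2778858 to 15019501 counts. Intervals cover counting error only, and cells are not replicates, so no p-value is given. Ratios are log2 of pooled CPM with 10 CPM added, and at least 2-fold on that scale is the rule for a call. The members, gene lists and limits were chosen with earlier results of these data known. Genes named for likeness are the 5 with the highest r under the filters given, without predicted, mitochondrial and ribosomal protein symbols; the lowest 3 within libraries and Mki67, Mecom, Procr and Itga2b by class were added after the values were seen. Of the listed symbols, Cd244a, Slamf6, Slamf7, Slamf9, Cd2, Sh2d1a, Sh2d1b1 and Sh2d1b2 are not in the table (Cd244 is). Alternatives were mean per-cell CPM, leaving out the highest cell or the deepest 10% of cells, 1 CPM added, recovered genes as the total, size factors, mean scores and other thinning depths. Python 3.11.15, numpy 2.4.6, scipy 1.17.1 and pandas 2.3.3 were used. Some items are not reported here.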

Additional observations from a re-analysis of the deposited data

How the results depend on the processing

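No paired analysis was possible because each group has 1 library. Of the values past 2-fold, 0 changed sign. Slamf1 values short of 2-fold did: by Cd48 class in HPC1 the log2 ratio was 0.76 with the limit at 50 CPM and -0.45 at 100 CPM. With 10 CPM added the Cd48 log2 ratio was 3.50 for the MPP2-containing over the double-negative library; it was 3.22 from mean per-cell CPM, 5.55 with 1 CPM added and 4.04 with the recovered genes as the total. For HSC2/MPP4 over CD48-negative HSC2 it was 3.24, and 3.67 without the highest cell of each library and 4.07 with 1 CPM added. For CD48-negative HSC2 over the double-negative library it was 0.74, and 0.24 from mean per-cell CPM, 0.31 without the highest cells, 1.02 with the recovered genes as the total and 1.98 with 1 CPM added; the last 2 are past 2-fold. For HPC1 over HSC1 it stayed between -1.24 and -0.98 in CPM, and at -0.98, without the deepest 10% of cells, it was no longer past 2-fold. For Slamf1, HPC1 over HSC1 gave -0.70, and -0.41 from mean per-cell CPM and -1.13 without the deepest 10% of cells, past 2-fold. HSC2/MPP4 over CD48-negative HSC2 gave 0.27, and 1.60 with 1 CPM added. The MPP2-containing over the double-negative library gave 0.0037, and -0.14 from mean per-cell CPM, -0.06 without the deepest cells, -0.03 with the recovered genes as the total and -0.11 as a difference of mean scores. CD48-negative HSC2 over the double-negative library gave -1.87, a value set by the added CPM and no bound, and -2.18 from mean per-cell CPM, -2.06 without the deepest cells, -4.79 with 1 CPM added and -2.45 with the recovered genes as the total.

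The share of cells with Cd48 depended on depth. Thinned to 5000 counts it was 37.9% in HSC2/MPP4, 28.8% in the MPP2-containing library, 20.7% in HSC1 and 0% in the double-negative library; at 20000 counts it was 76.4% in HSC2/MPP4. Without thinning it was 70.8% in HSC2/MPP4, 82.5% in the MPP2-containing library, 45.1% in HPC1, 48.8% in HSC1 and 15.8% in the double-negative library. Slamf1 at 5000 counts was in 0% of HSC2/MPP4 cells, 5% of the MPP2-containing library, 7.41% of HPC1 and 9.76% of HSC1, and at 20000 counts in 23.4% of the MPP2-containing library. Without thinning it was in 55.0% of the MPP2-containing library, 48.8% of HPC1 and 40.8% of the double-negative library. With genes counted in at least 10% of cells, the 5 likest genes were shared in 3 of the 4 lists, and 2 of 5 were shared for Slamf1 within libraries. Depth limits Slamf1 in CD48-negative HSC2, where 0 counts allow up to 1.33 CPM by the Poisson interval.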
